A study of Homo sapiens with 12 samples.

Results

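Metallothioneins and the zinc carriers that work beside them were followed in HEK293T cells, an established line from human embryonic kidney, by RNA sequencing of polyadenylated RNA. The 8 members were listed by symbol, as MT2A, MT1X, MT1F, MT1E, MT1G, MTF1, SLC30A1 and SLC39A10, and each was found once among 56337 genes in the deposited table. Of the 8 members, 6 had a mean of at least 1 FPKM (fragments scaled for transcript length and library size) over the 12 libraries and were among the 13682 genes tested. All cells were wild type and were kept in RPMI with serum. There were 4 groups of 3 libraries. The FAC+BafA1 group had ferric ammonium citrate (FAC, an iron salt) at 0.1 mg/ml for 24 h and then bafilomycin A1 (BafA1) at 10 nM for 24 h. The FAC group had the iron salt only, the BafA1 group had bafilomycin only, and the control group had neither. BafA1 blocks the V-ATPase, the proton pump that acidifies lysosomes. The comparisons asked how these genes answer a loss of lysosomal acidity with and without added iron. All cells come from 1 line, and the labels do not say whether replicates were separate cultures, so p-values measure the spread between these libraries only.

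Metallothioneins are small cysteine-rich proteins that bind zinc, copper and cadmium in the cytosol. When free zinc rises, the transcription factor MTF1 takes up zinc through its zinc fingers, enters the nucleus and binds metal response elements in the promoters of metallothionein genes and of SLC30A1, so these transcripts are widely used as readouts of zinc. SLC30A proteins (ZnT) move zinc out of the cytosol, across the plasma membrane or into vesicles, and SLC39A proteins (ZIP) move it into the cytosol. In mouse and zebrafish cells, zinc-activated MTF1 is also known to lower SLC39A10.

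The element that MTF1 binds has the core TGCACNC or TGCGCNC. The promoters of MT2A, MT1X and SLC30A1 are shown because, of the members' windows used here, they are those that hold a core. They are the 250 bases before the RefSeq start (GRCh38.p14), read along the gene's strand, and capitals mark each core on either strand (a core on the other strand reads GNGTGCA or GNGCGCA). MT2A lies at chr16:56608334-56608583 on the plus strand, MT1X at chr16:56682220-56682469 on the plus strand, and SLC30A1 at chr1:211579162-211579411 on the minus strand.
MT2A: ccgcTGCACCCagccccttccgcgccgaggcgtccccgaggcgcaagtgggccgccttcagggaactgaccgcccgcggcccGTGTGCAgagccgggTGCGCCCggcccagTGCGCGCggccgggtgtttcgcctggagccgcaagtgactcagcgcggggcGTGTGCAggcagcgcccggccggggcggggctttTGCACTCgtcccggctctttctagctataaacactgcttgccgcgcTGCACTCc
MT1X: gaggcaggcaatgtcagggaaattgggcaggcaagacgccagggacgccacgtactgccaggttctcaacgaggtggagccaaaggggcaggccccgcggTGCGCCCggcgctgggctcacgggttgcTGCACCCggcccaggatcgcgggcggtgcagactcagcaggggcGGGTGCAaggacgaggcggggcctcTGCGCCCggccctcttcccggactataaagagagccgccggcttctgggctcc
SLC30A1: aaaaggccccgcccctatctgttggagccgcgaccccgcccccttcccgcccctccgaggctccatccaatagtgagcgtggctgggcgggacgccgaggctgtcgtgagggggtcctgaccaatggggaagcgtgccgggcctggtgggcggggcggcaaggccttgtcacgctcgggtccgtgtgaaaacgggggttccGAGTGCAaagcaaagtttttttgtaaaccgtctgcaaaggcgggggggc
No core overlapped another in these windows.

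The MT2A window held 7 cores, 5 of the first form and 2 of the second, and 0.0313% of 35116 RefSeq promoter windows of the same length held at least as many. MT1X held 4, and 0.37% of windows held at least 4. SLC30A1 held 1, on the strand opposite the gene, and 24.8% of all windows held at least 1. The window of MTF1 and both windows of SLC39A10 held 0. These are matches of letters in 1 stretch of sequence, and a window without them says nothing about binding by MTF1. The part of the cores in any change of these transcripts was not tested. Windows for MT1F, MT1E and MT1G were not used here.

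**Figure D1:**
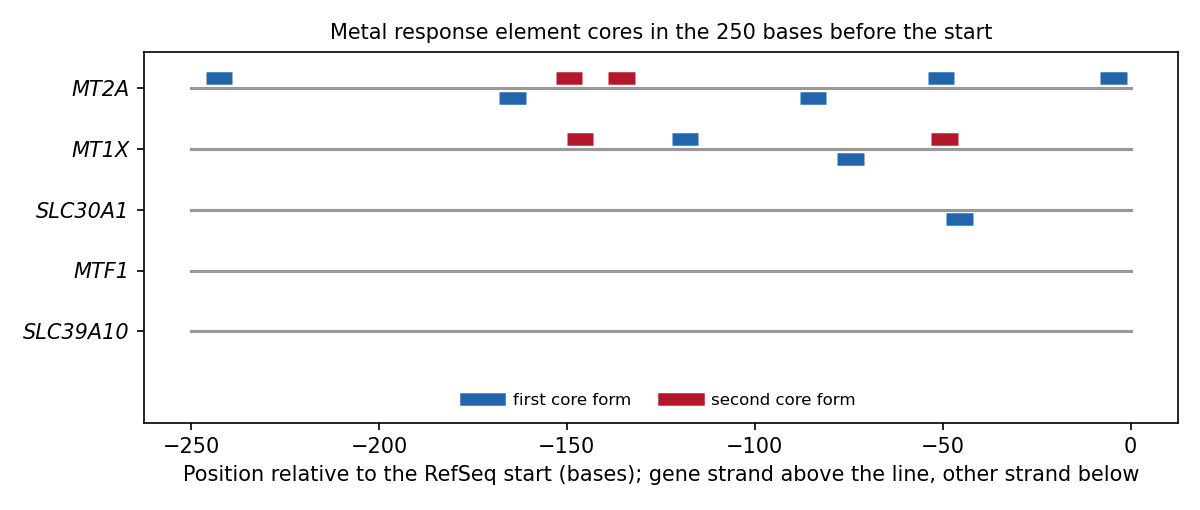
Positions of metal response element cores in the 250 bases before the RefSeq start of 5 members, in bases from the start, with cores on the gene's strand above each line and on the other strand below it. MT2A holds 7 cores, MT1X 4 and SLC30A1 1, and the windows of MTF1 and SLC39A10 hold 0 (SLC39A10 has a further window, also with 0).

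Some facts of the libraries bear on how the members can be read. Depth, estimated from the steps of low values, was 34500000 to 37750000 fragments per library, and correlations of log2 values within groups, across genes, were 0.993 to 0.995. Of the 7 markers fixed for HEK293T cells, 6 were above a mean of 1 FPKM and PAX2 was not. The summed level of the 7 was 724 to 732 FPKM in FAC+BafA1, 482 to 493 in FAC, 905 to 912 in BafA1 and 494 to 499 in control. Most of this sum was VIM, with means of 563, 335, 697 and 355 FPKM in the same order of groups. CDH2 and PAX2 went the other way in BafA1 against control, CDH2 at 16.9 against 21.8 FPKM. Of keratinocyte markers 0 of 4 and of hepatocyte markers 0 of 3 reached a mean of 1 FPKM. Of fibroblast markers 1 of 4 did (COL1A1), with COL1A2 at 0 in every library and a summed level of 5.62 to 8.25 FPKM in FAC+BafA1, 5.0 to 6.85 in FAC, 2.98 to 3.59 in BafA1 and 4.73 to 6.88 in control. The part of these levels in the results was not tested. Libraries with and without FAC differ in which gene entries hold values. On 627 entries, 1 side had 0 throughout its 6 libraries while each of the 6 on the opposite side reached 1 FPKM. No such entry overlaps a member. Every comparison of libraries with FAC against libraries without it sets differently filled libraries against each other, and the part of this in the members' FAC differences was not tested. In bulk RNA, fewer cells of a kind and less RNA per cell cannot be told apart.

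The 5 metallothionein members lie in 1 cluster on chromosome 16 (GRCh38, GENCODE release 44), with MT2A at 56608584 to 56609497, MT1E at 56625475 to 56627112, MT1F at 56657731 to 56660698, MT1G at 56666730 to 56668065 on the minus strand, and MT1X at 56682470 to 56684196. Of 18 entries of the table between MT4 and MT1X, 12 were at 0 in every library. MT1E was among them. MT1G was at 0.06 FPKM in 1 FAC+BafA1 library, 0.10 in 1 BafA1 library, 0.10 in 1 control library and 0 in the other 9, values that come to at most 1.69 fragments at the estimated depth. MT1E and MT1G were therefore not tested. MT2A, MT1X and MT1F made up nearly all of the coding metallothionein transcript.

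**Figure D2:**
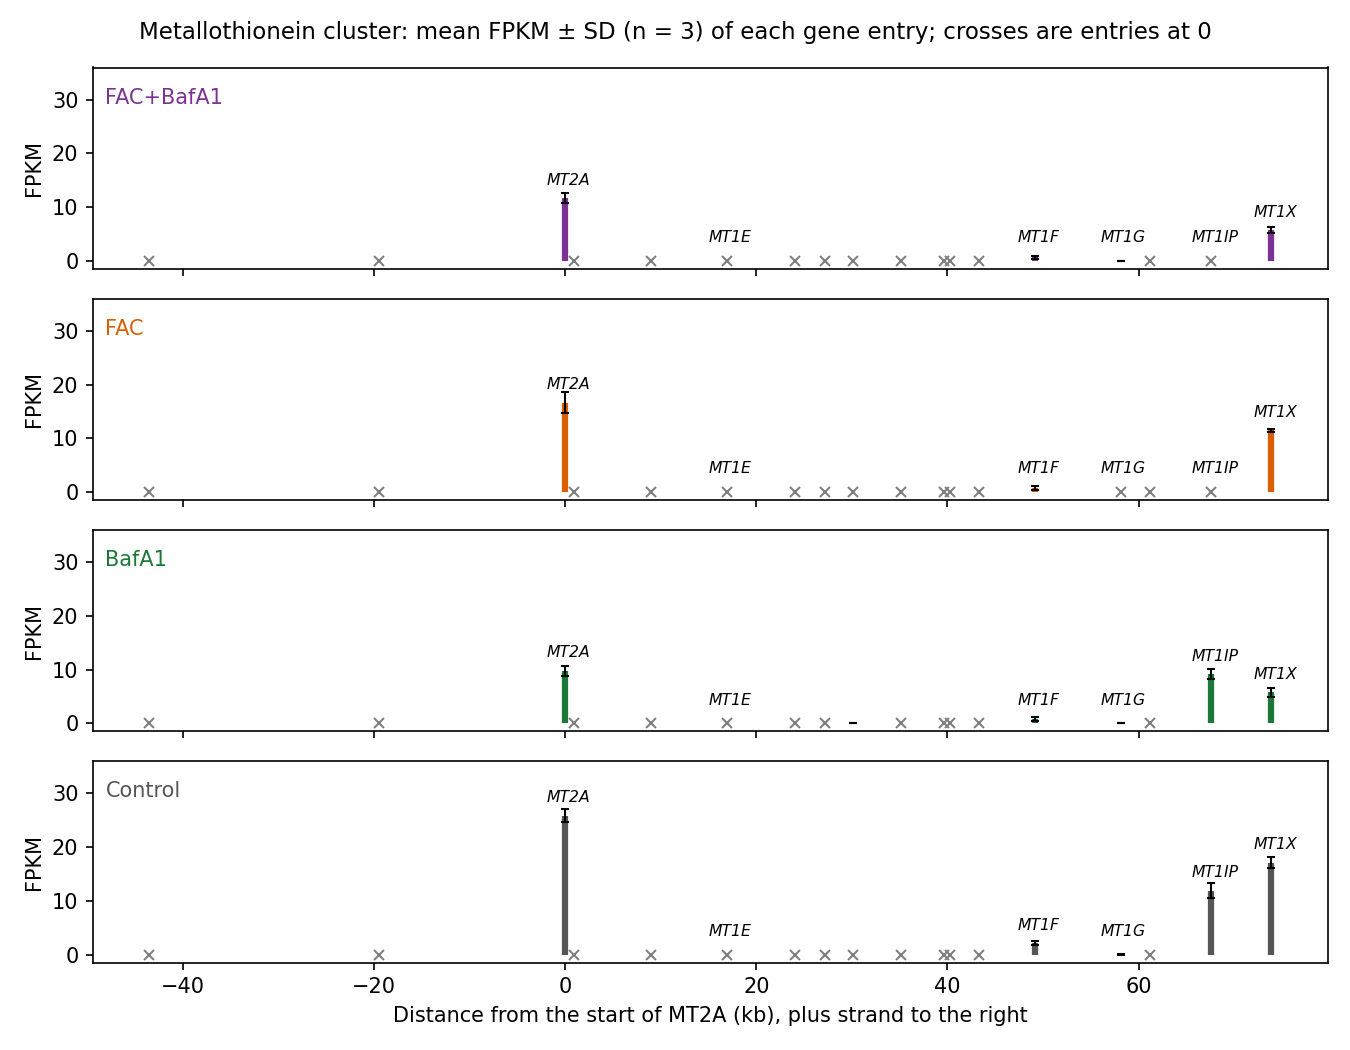
Mean FPKM of each gene entry in the metallothionein cluster, with SD over 3 libraries as bars, by distance in kb from the start of MT2A; crosses mark entries at 0 in all 3 libraries of a group. MT2A and MT1X stand above the other coding genes in all 4 groups, and the pseudogene entry MT1IP holds values in the BafA1 and control groups and none in the FAC+BafA1 and FAC groups.

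MT2A, the most abundant member of the family here, was lower after BafA1 both with and without iron, and lower with iron alone. It had 10.65, 12.27 and 12.17 FPKM in the 3 FAC+BafA1 libraries and 17.77, 17.80 and 14.43 in the 3 FAC libraries. Without iron, it had 9.74, 10.74 and 8.85 FPKM in BafA1 libraries against 24.70, 27.06 and 25.72 in control libraries. The control libraries were the highest of the 12 and the BafA1 and FAC+BafA1 groups overlapped, while every other pair of groups stood apart. The mean of the BafA1 group was 0.379 of the control mean, a change of -1.32 ± 0.09 on the log2(FPKM + 1) scale (SE; limma adjusted p = 6.79e-08). With iron, the FAC+BafA1 mean was 0.702 of the FAC mean (log2 -0.47 ± 0.09, adjusted p = 0.00318). FAC alone was at 0.645 of control (log2 -0.61 ± 0.09, adjusted p = 0.000239).

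MT1X, a metallothionein of the same cluster, showed the largest fall of the 3 tested metallothioneins after BafA1 in both settings. FAC+BafA1 libraries had 6.08, 6.0 and 5.20 FPKM, against 11.23, 11.60 and 11.69 in FAC libraries. BafA1 libraries had 6.61, 5.12 and 5.51 FPKM, against 18.18, 17.01 and 16.17 in control libraries. The 2 groups given BafA1 overlapped and lay below every library without it, with FAC between them and control. MT1X fell to 0.336 of the control mean in BafA1 (log2 -1.43 ± 0.08, limma adjusted p = 1.69e-08), and to 0.501 of the FAC mean in FAC+BafA1 (log2 -0.89 ± 0.08, adjusted p = 1.88e-05). In FAC it was at 0.672 of control (log2 -0.53 ± 0.08, adjusted p = 0.000393). MT1X shares 18.7% of its 50-base windows with transcripts of other genes, mostly with an overlapping long non-coding entry, ENSG00000259827, that was at 0 in every library.

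MT1F was near the detection limit outside the control group. It had 0.54, 0.52 and 1.02 FPKM in FAC+BafA1, 0.43, 1.16 and 0.60 in FAC, 0.45, 1.14 and 0.85 in BafA1, and 2.41, 1.72 and 2.26 in control. All control libraries were above all others, and the 3 treated groups overlapped. MT1F passed the expression minimum, with a mean of 1.09 FPKM, only through its control values, so a difference from control was built into its inclusion and is given as a description only. Its mean was 0.382 of control in BafA1 and 0.343 of control in FAC, or -0.80 and -0.87 on the log2(FPKM + 1) scale. With a pseudocount of 0.1 these log2 changes were -1.35 and -1.51. In FAC+BafA1 against FAC the log2 change was -0.02 (95% interval -0.43 to 0.38, limma adjusted p = 0.975). At the estimated depth its lowest value, 0.43 FPKM, comes to 2.65 fragments if they came from the shortest listed transcript (317 bases) and 22.5 if from the longest (1573 bases).

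Reads from related metallothioneins can be split among them, so the 12 coding metallothionein genes were also summed. The sum was 18.2 ± 0.755 FPKM in FAC+BafA1, 28.9 ± 1.97 in FAC, 16.4 ± 1.05 in BafA1 and 45.1 ± 0.855 in control (SD, n = 3). BafA1 was thus at 0.364 of control and FAC+BafA1 at 0.629 of FAC. The pseudogene entry MT1IP, at chromosome 16, 56676190 to 56677742, is the entry of the cluster whose values split by FAC. It was at 0 in all FAC+BafA1 and FAC libraries, at 9.79, 9.59 and 8.13 FPKM in BafA1 and at 13.43, 11.59 and 10.70 in control. With all 21 metallothionein entries in the sum, pseudogenes included, the ratio of FAC to control was 0.508 instead of 0.641, and that of FAC+BafA1 to BafA1 was 0.706 instead of 1.11, which turns its direction. The ratios of BafA1 to control (0.449) and of FAC+BafA1 to FAC (0.623), each between libraries on the same side of FAC, kept theirs. The 242-base transcript of MT1IP shares 0 of its 193 windows of 50 bases with transcripts of other genes, and whether its missing values changed those of MT1X or MT2A was not tested.

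The balance between both main metallothioneins was also read per library. The MT2A value was 1.75, 2.04 and 2.34 times that of MT1X in FAC+BafA1 libraries, 1.58, 1.53 and 1.23 times in FAC, 1.47, 2.10 and 1.61 times in BafA1, and 1.36, 1.59 and 1.59 times in control. FAC+BafA1 lay above FAC in every library, and BafA1 overlapped control. This ratio was not tested.

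MTF1, the zinc-sensing transcription factor, lies on chromosome 1 at 37809574 to 37859592. It had 3.64, 3.32 and 3.36 FPKM in FAC+BafA1, 3.06, 3.51 and 2.82 in FAC, 3.44, 4.17 and 3.61 in BafA1, and 4.41, 3.31 and 3.51 in control. The groups overlapped in every pair. None of the 6 comparisons of MTF1 passed the threshold, with limma adjusted p of 0.375 to 1. The 95% interval of its log2 change was -0.21 to 0.22 for BafA1 against control and -0.11 to 0.32 for FAC+BafA1 against FAC. MTF1 is regulated by its movement into the nucleus, which transcript levels do not measure.

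SLC30A1 (ZnT1), the exporter that carries zinc across the plasma membrane, lies on chromosome 1 at 211571568 to 211579161. Its level was lowest where both treatments were given. FAC+BafA1 libraries had 4.28, 4.0 and 3.94 FPKM against 5.23, 5.18 and 5.88 in FAC libraries. BafA1 libraries had 5.23, 5.84 and 6.13 FPKM against 7.93, 7.5 and 7.45 in control libraries. All control libraries were highest and all FAC+BafA1 libraries lowest, while FAC and BafA1 overlapped. The change with BafA1 was log2 -0.34 ± 0.07 in FAC+BafA1 against FAC (limma adjusted p = 0.00468) and -0.36 ± 0.07 in BafA1 against control (adjusted p = 0.000495). SLC30A1 was also lower with iron, at 0.712 of control in FAC (log2 -0.43 ± 0.07, adjusted p = 0.000583) and at 0.711 of BafA1 in FAC+BafA1 (log2 -0.41 ± 0.07, adjusted p = 0.000184). FAC+BafA1 thus reached 0.534 of control.

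SLC39A10 (ZIP10), an importer at the plasma membrane, lies on chromosome 2 at 195575977 to 195737702 and followed another order. FAC+BafA1 libraries had 40.30, 40.46 and 41.84 FPKM and FAC libraries 36.26, 36.02 and 35.89. BafA1 libraries had 14.20, 14.36 and 15.06 FPKM and control libraries 24.53, 23.72 and 24.60. No pair of groups overlapped, and the order was FAC+BafA1, FAC, control, BafA1 from highest to lowest. Without iron, SLC39A10 fell to 0.599 of control in BafA1 (log2 -0.70 ± 0.03, limma adjusted p = 4.45e-09). With iron the direction was opposite, at 1.13 times FAC in FAC+BafA1 (log2 0.18 ± 0.03, adjusted p = 0.00424). FAC stood 1.49-fold above control (log2 0.55 ± 0.03, adjusted p = 4.92e-08). FAC+BafA1 stood 2.81-fold above BafA1 (log2 1.43 ± 0.03, adjusted p = 3.12e-12).

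**Figure D3:**
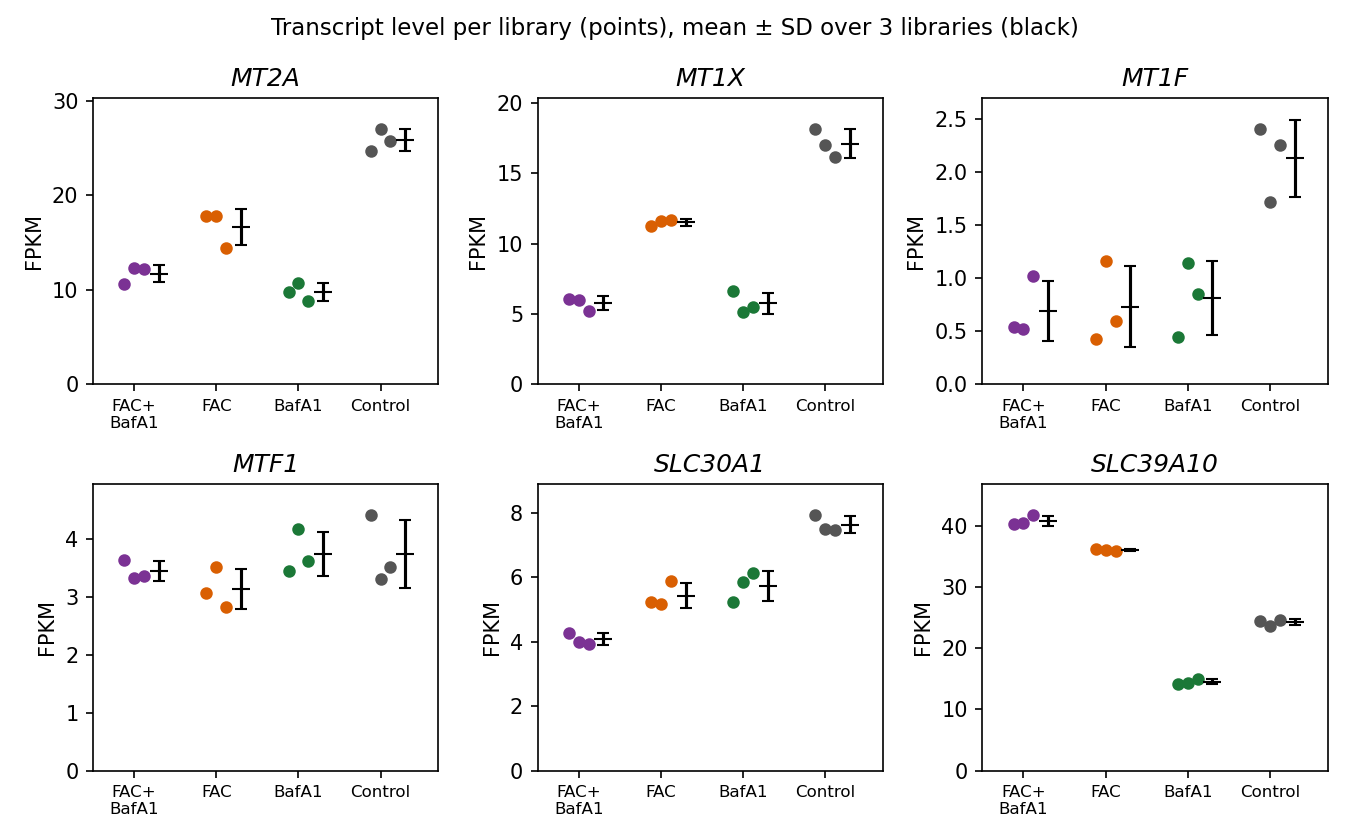
FPKM of the 6 tested members in each library (points) with the mean and SD over 3 libraries (black), by group. MT2A, MT1X, MT1F and SLC30A1 are highest in the 3 control libraries, MTF1 overlaps among all groups, and SLC39A10 is highest in FAC+BafA1 and lowest in BafA1.

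Calls were counted over MT2A, MT1X, MTF1, SLC30A1 and SLC39A10. These are the tested members other than MT1F, whose inclusion rested on its control values. MT1E and MT1G were not tested and are not counted. In BafA1 against control 4 were lower and 0 higher, where 67.1% of all tested genes were called (37.6% lower and 29.5% higher), so a call in that comparison is common among all genes. In FAC+BafA1 against FAC, 3 were lower and 1 higher, with 19.3% of all genes called (9.49% lower and 9.76% higher). In FAC against control, 3 were lower and 1 higher, with 9.56% of all genes called (4.84% lower and 4.72% higher). FAC+BafA1 against BafA1 had 2 higher and 1 lower (67.9% of all genes called, 38.8% higher and 29.1% lower), and FAC+BafA1 against control had 1 higher and 3 lower (32.9% of all genes called, 16.2% higher and 16.6% lower). The comparisons share groups and are not independent of each other. The call of MT2A in FAC+BafA1 against BafA1 (log2 0.24 ± 0.09, limma adjusted p = 0.03) was lost under median-of-ratios scaling (adjusted p = 0.0895), with no filter on low values (0.0655), without BafA1 replicate 1 (0.0618) or 3 (0.122), and without FAC+BafA1 replicate 2 (0.0964) or 3 (0.0916). MT1X did not differ past the threshold between these groups (log2 0.01, 95% interval -0.17 to 0.18, adjusted p = 0.95).

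The interaction is the log2 change of FAC+BafA1 against FAC minus that of BafA1 against control. Of the same tested members, 3 were called positive and 0 negative, with 50.1% of all tested genes called (29.5% positive and 20.6% negative). It was 0.85 ± 0.12 for MT2A (SE, limma adjusted p = 0.00015), 0.54 ± 0.12 for MT1X (adjusted p = 0.0021) and 0.88 ± 0.05 for SLC39A10 (adjusted p = 7.22e-08). MT2A and MT1X thus fell less after BafA1 when iron had been given, and SLC39A10 changed sign. MT1F had 0.78 (1.33 with a pseudocount of 0.1), a value in which its control libraries enter and which is given as a description. For SLC30A1 the interaction was 0.02 (95% interval -0.19 to 0.23, adjusted p = 0.888), and for MTF1 0.10 (-0.20 to 0.41, adjusted p = 0.563). These intervals do not show the responses to be equal.

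**Figure D4:**
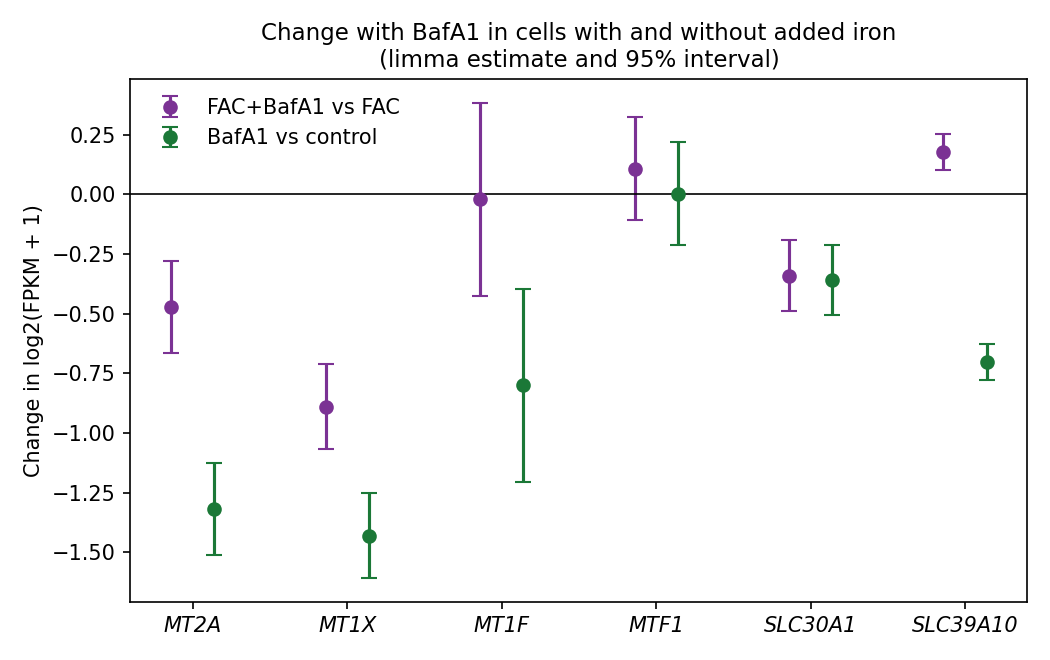
Change in log2(FPKM + 1) with BafA1 for the 6 tested members in iron-loaded cells (FAC+BafA1 against FAC) and in cells without added iron (BafA1 against control), with 95% intervals from limma. MT2A and MT1X fall in both settings and less so with iron, SLC30A1 falls in both, and SLC39A10 lies above 0 with iron and below 0 without it.

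Zinc exporters moved in both directions after BafA1 without iron. Of 10 SLC30A genes, 7 were tested, and in BafA1 against control 4 were higher and 2 lower, where 29.5% of all genes were higher and 37.6% lower, with a median log2 change of 0.12 beside -0.04 over all genes. SLC30A5, which loads zinc into the early secretory pathway, was at 96.7 ± 3.73 FPKM in BafA1 and 58.8 ± 4.58 in control (SD, n = 3; log2 0.71 ± 0.05, limma adjusted p = 9.09e-08). SLC30A7, a Golgi zinc transporter, was at 18.9 ± 0.640 FPKM in BafA1 and 10.4 ± 0.150 in control (log2 0.80 ± 0.05, adjusted p = 2.19e-08). SLC30A3, a vesicular zinc transporter, fell to 1.69 ± 0.130 FPKM in BafA1 against 2.92 ± 0.0361 in control (log2 -0.54 ± 0.09, adjusted p = 0.000131). In FAC+BafA1 against FAC, 9.76% of all genes were higher and 9.49% lower. SLC30A5 was the 1 exporter called higher (log2 0.15 ± 0.05, limma adjusted p = 0.0454) and SLC30A1 the 1 called lower. SLC30A3 was at -0.14 and was not called (adjusted p = 0.31). In FAC against control 1 of the 7 was called, SLC30A1, where 9.56% of all genes were called. The log2 changes of the 7 ran from -0.43 to 0.06.

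Of 14 SLC39A importers, 11 were tested, and 7 were lower and 3 higher in BafA1 against control, where 37.6% of all genes were lower and 29.5% higher. Their median log2 change was -0.32, beside -0.04 over all genes. SLC39A4, the main importer of dietary zinc in the gut, fell to 10.4 ± 0.375 FPKM in BafA1 against 22.3 ± 1.14 in control (SD, n = 3; log2 -1.02 ± 0.07, limma adjusted p = 1.46e-07), and in FAC+BafA1 against FAC by 0.27 ± 0.07 (adjusted p = 0.0249). SLC39A8, an importer of zinc and manganese, was at -0.64 ± 0.06 and SLC39A1, a plasma membrane importer, at -0.52 ± 0.03 log2 units in BafA1 against control (adjusted p = 2.29e-06 and 1.53e-08). The higher importers included SLC39A7, which releases zinc from the endoplasmic reticulum, at 94.6 ± 3.67 FPKM in BafA1 and 64.3 ± 2.36 in control (log2 0.55 ± 0.04, adjusted p = 1.14e-07). They also included SLC39A14, an importer of zinc and iron, at 42.9 ± 0.929 FPKM in BafA1 and 28.9 ± 0.531 in control (log2 0.56 ± 0.03, adjusted p = 2.31e-08). In FAC against control, 1 of 11 importers was called, SLC39A10, where 9.56% of all genes were called, so the count is near that share. The other 10 had log2 changes of -0.10 to 0.10. FAC+BafA1 against FAC had 3 importers higher and 1 lower (median 0.04), where 9.76% of all genes were higher and 9.49% lower. SLC39A10 had the largest increase.

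**Figure D5:**
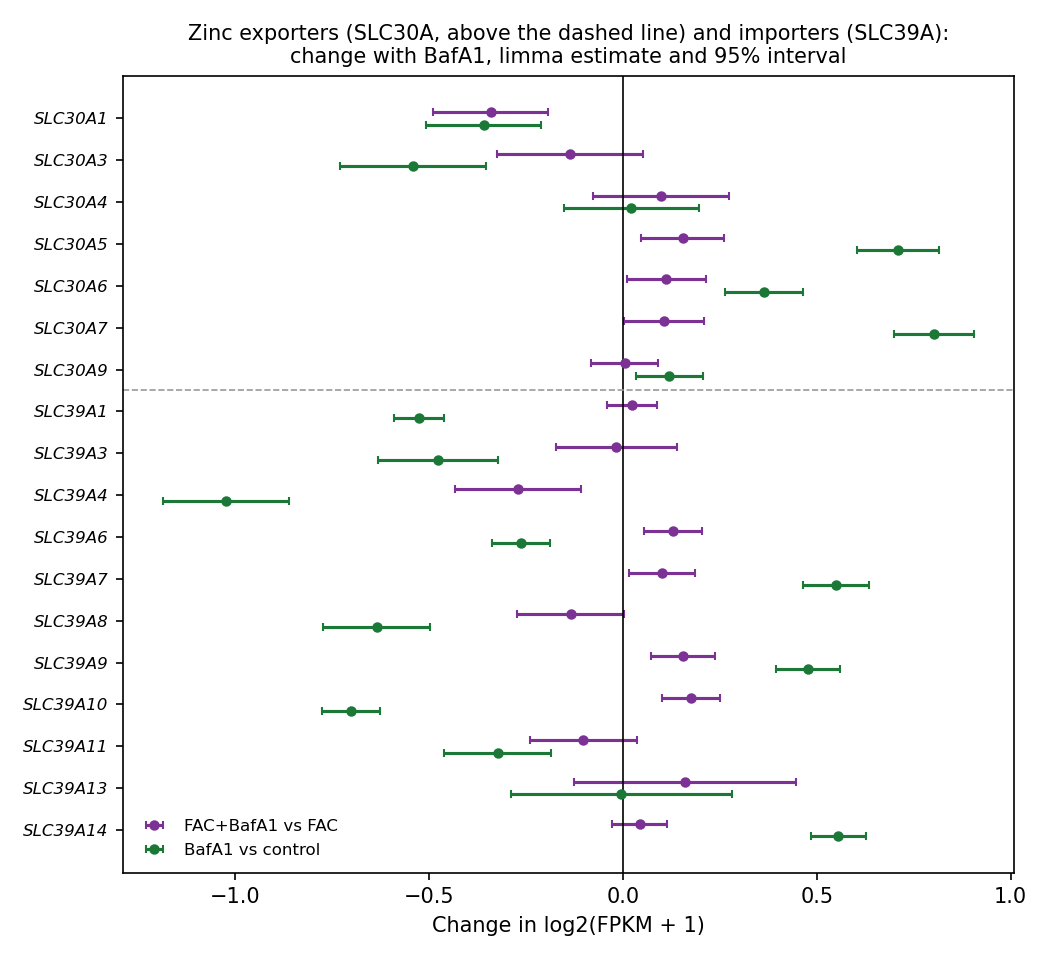
Change in log2(FPKM + 1) with BafA1 for the 7 tested SLC30A exporters and the 11 tested SLC39A importers, in iron-loaded cells and in cells without added iron, with 95% intervals from limma. SLC30A5 and SLC30A7 lie furthest above 0 and SLC39A4 furthest below it without iron, and with iron all 18 genes lie between -0.34 and 0.18.

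Metallothioneins also bind copper, so genes of copper handling were set beside them. Of 11 listed, 10 were tested, and 8 were lower and 2 higher in BafA1 against control, where 37.6% of all genes were lower and 29.5% higher. Their median log2 change was -0.38, beside -0.04 over all genes. In FAC+BafA1 against FAC 2 were lower and 0 higher (median -0.06), where 9.49% of all genes were lower and 9.76% higher. In FAC against control 0 were called by limma, where 9.56% of all genes were. In that comparison COX17, which carries copper to cytochrome oxidase, was the 1 gene of them with an unadjusted p under 0.05 (log2 -0.17 ± 0.06, adjusted p = 0.176). ATOX1, the copper chaperone that serves the secretory pathway, fell to 37.02 ± 1.40 FPKM in BafA1 against 75 ± 1.58 in control (SD, n = 3; log2 -1.0 ± 0.05, limma adjusted p = 8.1e-09). SOD1, the copper and zinc superoxide dismutase, fell to 325 ± 2.05 FPKM in BafA1 against 495 ± 18.1 in control (log2 -0.61 ± 0.03, adjusted p = 3.66e-09). SLC31A2, a copper transporter of vesicles, was at -0.64 ± 0.07 and SCO1, a copper chaperone of cytochrome oxidase, at -0.59 ± 0.05 log2 units (adjusted p = 6.32e-06 and 8.21e-07). With iron, SOD1 fell by 0.16 ± 0.03 and SCO1 by 0.23 ± 0.05 (adjusted p = 0.00216 and 0.00974), and ATOX1 was at -0.10 (adjusted p = 0.193).

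Genes with the most similar profile were sought among 11569 coding genes, as the smallest root mean square difference of log2 values over the 12 libraries, each gene centred on its own mean. This is a description of 12 libraries in 4 groups that share their treatments. Closest to MT2A was GPX1, a glutathione peroxidase and selenoprotein, at 0.117 log2 units, with mean levels of 92.05 FPKM in FAC+BafA1, 123 in FAC, 67.5 in BafA1 and 184 in control. SELENOH, a nuclear selenoprotein, followed at 0.118 and CYP26A1, which breaks down retinoic acid, at 0.169. Closest to SLC30A1 were MID2, a ubiquitin ligase (0.144), DLX2, a homeobox factor (0.156), and SMAD9, a BMP signal transducer (0.165). Closest to SLC39A10 were ELOVL6, a fatty acid elongase (0.144), INSIG1, which holds the sterol sensor complex in the endoplasmic reticulum (0.157), and DHCR7, which catalyses the last step of cholesterol synthesis (0.185). ELOVL6 averaged 32.01 FPKM in FAC+BafA1, 28.4 in FAC, 14.2 in BafA1 and 22.2 in control, the same order as SLC39A10. DHCR7 had that order too, at 70.2, 67.3, 35.7 and 49.2 FPKM. INSIG1 did not, at 100.4 FPKM in FAC+BafA1, 106 in FAC, 46.1 in BafA1 and 59.0 in control.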

How the data were processed

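The authors deposited FPKM values in 1 table with a column per library, rounded to 2 decimals. STAR, RSEM and GRCh38 are named per the submitters' processing notes; their versions, the annotation, filters and strand use: not given in the sources used here. From the 56340 entries, 3 repeated entries at 0 were dropped. No counts were used. The members and lists were chosen with earlier results of these data known.

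A gene was kept where its mean reached 1 FPKM, and log2(FPKM + 1) values were fitted with limma 3.58.1 in R 4.3.3 (group means, all 12 libraries, intensity trend). P-values were adjusted by Benjamini-Hochberg over 13682 genes within each comparison, with calls under 0.05. The log2 change understates that of low genes, most of all MT1F; ratios are of mean FPKM.

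Named beside the members were called list genes with a log2 change of at least 0.5 with BafA1, with or without iron, or in the interaction, and 3 nearest profiles for MT2A, SLC30A1 and SLC39A10. Depth was estimated from genes with 1 transcript and an assumed fragment of 150 bases. At that depth 52.4% to 67% of low values fell within 0.2 of a whole fragment, where 40% would at a depth not fitted to them. The depth was chosen to bring these same values close to whole fragments, so part of the excess was built in. The depth is therefore approximate. Promoter sequences are from RefSeq (GRCh38.p14) and matched 5 of 8 members. Protein sequences were not used here. Alternatives were other pseudocounts, filters, scalings, a fit of only the groups compared, no trend, a replicate block and leaving out each library.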

Additional observations from a re-analysis of the deposited data

Results flagged for a closer look

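These genes had a BafA1 response that differed between cells with and without added iron by the interaction term of limma, as did 50.1% of all genes tested. Among the members the interaction was 0.85 for MT2A, 0.54 for MT1X, 0.78 for MT1F and 0.88 for SLC39A10 on the log2 scale; MT1F was tested only through its control values, which enter its interaction.

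Positive interactions among the listed transporters and copper genes were 0.90 for ATOX1, 0.56 for COX17, 0.64 for SLC31A2, 0.55 for SLC39A1, 0.75 for SLC39A4 and 0.50 for SLC39A8. Negative ones were -0.55 for SLC30A5, -0.70 for SLC30A7 and -0.51 for SLC39A14. In SLC39A10 the 3 FAC+BafA1 libraries lay above the 3 FAC libraries, while the 3 BafA1 libraries lay below the 3 control libraries. Each response was measured between libraries on the same side of FAC, which are alike in the 627 entries that split by FAC. Entries that split by BafA1 were not counted. The interaction sets responses from the 2 sides against each other, and the part of the differing entries in the interaction was not tested.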

How the results depend on the processing

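Over 702 values of the members under alternatives, 666 kept their direction and side of the threshold, 15 lost their call and 21 changed sign. Many of these directions could not change. The filters, the block, the trend and the fit of only the groups compared leave an estimate as it is. So does leaving out a library of a group not compared. The total also holds MT1F against control, a difference that was built into its inclusion. The lost calls were those of MT2A in FAC+BafA1 against BafA1 and of MT1F in the interaction. All sign changes were in values near 0 that were not called. With median-of-ratios scaling and quantile normalization, MT1X in FAC+BafA1 against BafA1 was at -0.0491 and -0.0391, and the SLC30A1 interaction at -0.0414 and -0.0353. Leaving out 1 library moved MT1X in FAC+BafA1 against BafA1 between -0.0608 and 0.0964, the SLC30A1 interaction between -0.0363 and 0.0682, MTF1 in BafA1 against control between -0.0625 and 0.101 and in FAC+BafA1 against control between -0.155 and 0.0094, and MT1F in FAC+BafA1 against FAC between -0.155 and 0.15 and against BafA1 between -0.245 and 0.0353. The summed metallothionein level with pseudogenes was 25.9 FPKM in BafA1 and 57.7 in control, against 16.4 and 45.1 without them. Counts of all genes called moved by over 1.5 times in 2 comparisons, but the filters also change how many genes are tested. In FAC against control, 4486 of 36431 were called with no filter and 402 of 9655 at a mean of at least 5 FPKM, against 1308 of 13682. In FAC+BafA1 against control, 7643 of 36431 were called with no filter, against 4498 of 13682. MT1F and MTF1 are too low for the filter at 5 FPKM, and the interaction needs all 4 groups. Deviations of same-numbered libraries from their group means correlated at -0.07 to 0.14 over 18 pairs, 1 of them above 0.1. Of 12 libraries, 5 matched best with their own number. With group means of 3 libraries this cannot decide whether replicate numbers mark a shared culture or day. A replicate block changed no member's call (MT2A in BafA1 against control was at -1.32 with it, adjusted p = 2.25e-07).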
